A study of Homo sapiens with 18 samples.

Results

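A group of genes of cholesterol sensing and efflux were followed in BE(2)-m17 human neuroblastoma cells with and without ABCC1 overexpression. They are the 9 of 57905 counted Ensembl genes whose symbols are NR1H2, NR1H3, ABCA1, ABCG1, MYLIP, APOE, ABCA2, ABCA7 and NPC1, and all 9 had enough counts to be tested in every experiment. Every cell carried an APP transgene in the vector pSBbi-Hyg-APP. The control cells, labelled Puro, also carried the empty vector pSBbi-Pur, and the ABCC1-overexpressing cells carried codon-optimized ABCC1 in the same vector, labelled pSBbi-Pur-ABCC1(WT). The vectors are Sleeping Beauty transposons that insert into the genome, and the lines were kept under hygromycin and puromycin until plating. In each of 3 RNA-seq experiments, 3 libraries of each line were sequenced from wells plated with 14000000 cells and lysed on day 4, 18 libraries in all. The first experiment used a library kit for mRNA. The second, on cells taken here to be cryopreserved, and the third, on cells taken here to be newly transfected, used a kit for total RNA. That the labels RNA2 and RNA3 follow this order of cells was taken from the order in which the study lists its repeat experiments.

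Liver X receptors (LXRs) are nuclear receptors that bind oxysterols, oxidised forms of cholesterol that build up when a cell holds too much of it. Bound together with a retinoid X receptor at a DNA element called DR4, they switch on genes that move cholesterol out of the cell and limit its uptake. In the brain, cholesterol is passed between cells on APOE particles that are loaded by ABCA1 and ABCG1, and several of these genes have been studied in Alzheimer's disease. The comparison asks whether this program differed between ABCC1-overexpressing and empty vector control cells, and whether it differed in the same way in each experiment.

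The libraries held 27433393 to 57937653 assigned read pairs in the first experiment, 19577853 to 30996228 in the second and 8866994 to 13332413 in the third. The ABCC1 transgene had between 51035 and 594404 counts in the 9 ABCC1 libraries and between 0 and 15 in the 9 empty vector libraries, which matched their labels. ABCC1 replicate 3 of the first experiment stood apart from replicates 1 and 2, with a chi-square per degree of freedom over genes of 21.5 and 16.1, against 1.48 between those. Without it, 6 of the 9 genes were called there, as with it. Of 10 genes that mark sympathetic neuroblastoma cells, 9 or 10 reached 1 CPM per kb (counts scaled to a common library total, per kilobase of exon) in every group, so the cells carried the markers of their label. Their summed level did not overlap between the lines in the second experiment, at 2441 to 3027 CPM per kb without and 3170 to 3524 with ABCC1, and overlapped in the other two. In the first experiment DBH, CHGA, ISL1, GATA3 and PHOX2A were lower and TH, MYCN and STMN2 higher with ABCC1, and the part of this in the results was not tested. Background was measured from the reads on 345 olfactory receptor genes, which neuroblastoma cells were taken not to express. This background was 0.0035 ± 0.000166 CPM per kb in the empty vector libraries of the first experiment (SD, n = 3), 0.591 ± 0.0906 in the second and 1.61 ± 0.0947 in the third. It was lower in the ABCC1 libraries of every experiment, at 0.00234 ± 0.000136, 0.308 ± 0.145 and 1.26 ± 0.162 CPM per kb. The libraries of the lines did not overlap in any experiment, which gives the smallest p an exact two-sided permutation test of 3 against 3 allows, 0.1. Background thus moved with the line, and its level is given beside each of the 9 genes below.

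MYLIP was higher with ABCC1 in each experiment, and it was the only one of the 9 genes called in all 3. ABCA1, APOE and ABCA2 rose in the first experiment, while ABCG1 and NPC1 fell there. APOE, ABCA2 and NR1H2 also had higher values in the ABCC1 group means of the second and the third experiments and rose in the fit of all 18 libraries. The effect on ABCA1 differed between experiments in that fit, a call lost in 11 of 24 alternative settings. A gene is called where its adjusted p in edgeR (quasi-likelihood test) was at most 0.05. In the first experiment 6 of the 9 genes were called, where 37.6% of the 16995 genes tested were. In the second it was 1 of 9, against 1.7% of 34091, and in the third 1 of 9, against 2.8% of 36509. The ABCC1 and empty vector libraries did not overlap for 6 of the 9 genes in the first experiment (50.4% of all genes tested), for 5 in the second (29.8%) and for 2 in the third (19.5%). With the background of each library as a covariate, edgeR called none of the 9 in any single experiment, with 1, 2 and 0 at an unadjusted p under 0.05. Of all genes, that setting called only 18, 9 and 140. DESeq2, without that covariate, called 5, 3 and 1 of the 9, and 5283, 2849 and 1597 of all genes. The median log2 fold change (log2FC, ABCC1 against empty vector) of the 9 genes was 0.28, 0.18 and 0.17 in the first, the second and the third experiment, beside 0.01, −0.19 and −0.09 for all genes tested. These medians depended on the scaling. With scaling factors from the genes tested in the first experiment alone, the median in the second was 0.01 for the 9 genes and −0.36 for all genes, and with relative log expression factors it was 0.29 and −0.08. With background as a covariate the median of the 9 genes in the third was −0.04.

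**Figure D1:**
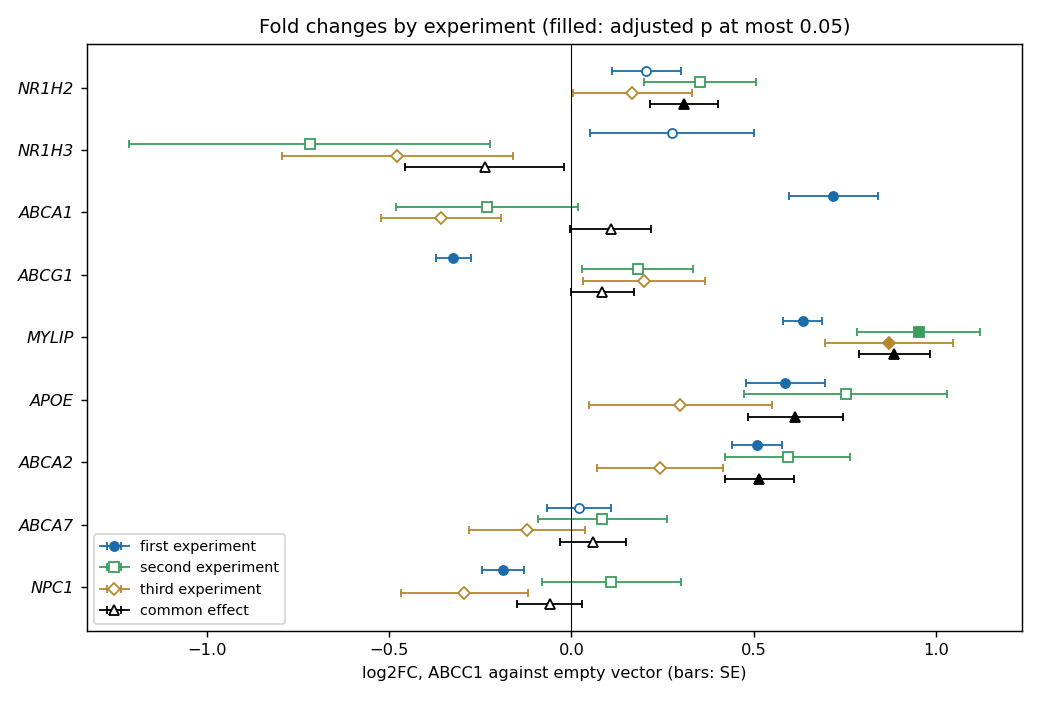
log2FC of the 9 genes in ABCC1-overexpressing against empty vector control cells (x axis; bars are SE) in the first, the second and the third experiments and as the common effect over all 18 libraries, with filled symbols where the adjusted p was at most 0.05. MYLIP has filled symbols in all 4 comparisons, and ABCA1 is filled at 0.72 in the first experiment with open symbols below 0 in the second and the third.

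The LXR receptors are NR1H2 (LXR beta), which most cells express, and NR1H3 (LXR alpha), which is enriched in liver, fat and macrophages. NR1H2 (ENSG00000131408; GRCh37, chromosome 19, 50832910 to 50886239, plus strand) was measured well above background in every experiment. It had 32.9, 29.9 and 32.5 CPM in the empty vector replicates of the first experiment and 35.8, 31.7 and 42.2 in the ABCC1 replicates. The groups overlapped, and the log2FC was 0.21 ± 0.09 (SE, adjusted p = 0.110). In the second experiment it had 24.8, 28.6 and 25.6 CPM without and 37.9, 32.6 and 30.6 CPM with ABCC1, so the groups did not overlap (log2FC 0.35 ± 0.15, adjusted p = 0.190). In the third it had 29.7, 44.0 and 29.9 CPM without and 37.0, 40.4 and 39.1 CPM with ABCC1, where empty vector replicate 2 lay above all the others (log2FC 0.17 ± 0.16, adjusted p = 0.686). None of these passed the test. In the first experiment NR1H2 was called without the filter on low counts (0.23, adjusted p = 0.00165) and without ABCC1 replicate 2 (0.29, adjusted p = 0.0149), and had 0.09 without ABCC1 replicate 3. Without empty vector replicate 2 the third experiment gave 0.39 (adjusted p = 0.101). The common effect over the experiments, the mean of the log2FC in one fit of 18 libraries, was 0.31 ± 0.09 (adjusted p = 0.0163). That call was lost with relative log expression factors (0.22, adjusted p = 0.0528), with at least 10 counts in every library (0.14, adjusted p = 0.0855) and when only the genes tested in every experiment were scaled and fitted (0.13, adjusted p = 0.115). It was also lost without empty vector replicate 2 (0.29, adjusted p = 0.0516) or ABCC1 replicate 3 (0.26, adjusted p = 0.0765) of the first experiment. With background as a covariate the common effect of NR1H2 was 0.13 and not called (adjusted p = 0.868). Background came to 8.42% of the NR1H2 level without and 3.43% with ABCC1 in the second experiment and to 17.4% and 12.2% in the third.

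NR1H3 (ENSG00000025434; GRCh37, chromosome 11, 47269851 to 47290396, plus strand) had between 20 and 50 counts per library in the first experiment, a mean of 0.719 ± 0.048 CPM without and 0.905 ± 0.223 CPM with ABCC1 (SD, n = 3). Its log2FC there was 0.28 ± 0.23 (adjusted p = 0.368). In the second and the third experiments its level per kilobase was no higher than background or close to it. The olfactory receptor background came to 113% of the NR1H3 level without and 96.5% with ABCC1 in the second experiment, and to 136% and 150% in the third. Its log2FC of −0.72 ± 0.49 in the second and −0.48 ± 0.32 in the third are therefore values of a transcript not measured above background. Of its exon length, 189 bp are shared with ACP2 on the opposite strand, and the counts took no account of strand. Per kilobase, NR1H2 was 51.3 ± 4.73 times NR1H3 without and 49.1 ± 14.8 times with ABCC1 in the first experiment (SD, n = 3).

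**Figure D2:**
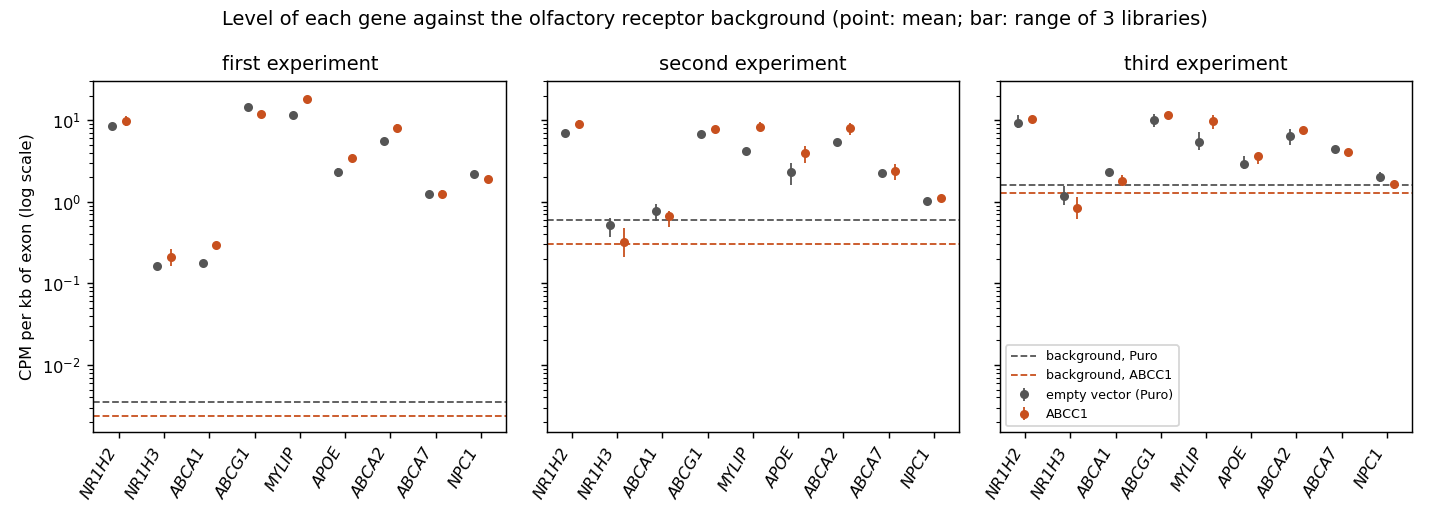
Level of each of the 9 genes (y axis, CPM per kb of exon on a log scale; points are means, bars the range of 3 libraries) in the empty vector and ABCC1 libraries of each experiment, with the mean olfactory receptor background of each line as a dashed line. NR1H3 lies at or under the dashed lines in the second and the third experiments, and ABCA1 and NPC1 lie close to them in the third.

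MYLIP (ENSG00000007944; GRCh37, chromosome 6, 16129356 to 16148479, plus strand), also called IDOL, is a ubiquitin ligase induced by LXR that limits the uptake of lipoproteins. In the first experiment it had 34.7, 36.1 and 35.3 CPM in the empty vector replicates and 54.1, 58.4 and 52.5 CPM in the ABCC1 replicates. In the second these were 12.9, 11.5 and 14 CPM against 28.6, 23.1 and 22.6 CPM. In the third they were 14.4, 21.6 and 13.2 CPM against 23.3, 31.6 and 35.2 CPM. Every ABCC1 library lay above every empty vector library of its experiment, which held in all 3 experiments for 6.69% of the 16689 genes tested in each. The log2FC was 0.63 ± 0.05 (adjusted p = 8.02e-06), 0.95 ± 0.17 (adjusted p = 0.00704) and 0.87 ± 0.17 (adjusted p = 5.71e-04), which correspond to 1.55-fold, 1.94-fold and 1.83-fold higher levels. Of the same 16689 genes, 1.22% were called higher in all 3 experiments. The common effect was 0.89 ± 0.10 (adjusted p = 6.68e-10). A difference of the effect between experiments was not detected (adjusted p = 0.940), with the second 0.24 ± 0.23 and the third 0.22 ± 0.24 above the first on the log2 scale.

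MYLIP lay well above background, which came to 14% of its level without and 3.77% with ABCC1 in the second experiment and to 29.7% and 12.8% in the third. With the background subtracted from each library, an alternative chosen after seeing the data, the ratio of the group means was 1.11 on the log2 scale in the second and 1.19 in the third. Its call in the second experiment was lost without empty vector replicate 3 (log2FC 1.03, adjusted p = 0.0711) or ABCC1 replicate 2 (1.01, adjusted p = 0.0525). With each library's background as a covariate, which separates the lines without overlap in every experiment, the log2FC was 0.43, 0.74 and 0.11, none of them called, and the common effect was 0.67 (adjusted p = 4.64e-04).

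The promoter of MYLIP is shown since this gene moved with the line in each experiment. The 250 bases before its RefSeq start (GRCh38.p14, plus strand, chr6:16128836-16129085) hold CCAAT read on the opposite strand at −109 and −68, counted from the start, and these letters are in capitals.

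MYLIP, −250 to −1: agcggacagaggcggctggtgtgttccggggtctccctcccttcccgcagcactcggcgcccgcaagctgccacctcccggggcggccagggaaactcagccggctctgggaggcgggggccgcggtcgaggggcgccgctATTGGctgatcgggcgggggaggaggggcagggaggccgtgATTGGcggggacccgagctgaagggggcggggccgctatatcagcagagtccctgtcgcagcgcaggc

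CCAAT was found on either strand in 34.6% of the 35116 promoter windows of 300 bases, 250 before and 50 after the start, in the RefSeq table. It was also found in windows of APOE, ABCA7 and NR1H3. The GC box, GGGCGG, starts at −170, −98 and −44 of MYLIP, where it is not marked, and was found in 45% of all windows. The part of either motif in the values of MYLIP was not tested. The window of MYLIP holds no match to DR4, the LXR element, searched on both strands with the letters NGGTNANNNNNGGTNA, in which N is any base.

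ABCA1 (ENSG00000165029; GRCh37, chromosome 9, 107543283 to 107690518, minus strand) pumps cholesterol and phospholipid onto apolipoproteins such as APOE. It was low in the first experiment, at 1.98, 2.17 and 1.93 CPM in the empty vector replicates and 3.57, 3.38 and 3.03 CPM in the ABCC1 replicates. The groups did not overlap, and ABCA1 was 1.65-fold higher with ABCC1 (log2FC 0.72 ± 0.12, adjusted p = 0.00103). The second experiment gave 10.7, 9.27 and 6.58 CPM without and 5.60, 8.63 and 8.39 CPM with ABCC1, and the groups overlapped (log2FC −0.23 ± 0.25, adjusted p = 0.607). With a library left out that value lay between −0.39, without empty vector replicate 3, and −0.047, without ABCC1 replicate 1. In the third it had 26.9, 27 and 25.5 CPM without and 24.2, 18.9 and 18.9 CPM with ABCC1. There every ABCC1 library lay below every empty vector library, but the difference did not pass the test (log2FC −0.36 ± 0.16, adjusted p = 0.269).

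The effect of ABCC1 on ABCA1 differed between the experiments in the joint fit (adjusted p = 0.0290), where 1.19% of the 46225 genes tested had such a difference. It was lower than in the first experiment by 1.04 ± 0.28 on the log2 scale in the second (adjusted p = 0.0450, with 1.09% of genes called) and by 1.10 ± 0.28 in the third (adjusted p = 0.0270, with 0.999% called). These 2 differed from each other by 0.06 ± 0.26 (adjusted p = 0.974). ABCA1 was the only one of the 9 genes with a called difference between experiments. The call was lost with any 1 of the 6 libraries of the first experiment left out (adjusted p from 0.0528 to 0.169) and without empty vector replicate 1 or 2 or ABCC1 replicate 2 or 3 of the third (0.0531 to 0.0555). It was also lost with the replicate number as a block (adjusted p = 0.0848). Background moved with the experiment and the line here too. It came to 1.96% of the ABCA1 level without and 0.799% with ABCC1 in the first experiment, to 75.9% and 46.3% in the second and to 68.8% and 69.4% in the third. With the background subtracted, the ratio of the group means was 0.93 on the log2 scale in the second, where the sign turned, and −0.38 in the third. The part of background in the difference between experiments was not tested further.

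The LXR element of ABCA1 is shown because it is the one DR4 match among the promoter windows of the 9 genes. The RefSeq table held windows for 8 of them and none for ABCG1, and 0.624% of all 35116 windows hold such a match. It lies 69 to 54 bases before the RefSeq start of ABCA1 (GRCh38.p14, minus strand, chr9:104928202-104928231 with 7 bases on each side). The match is in capitals on the strand of the gene, and below it the same 16 bases are read on the opposite strand with the paired hexamers in capitals and the spacer in lower case.

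ABCA1, −76 to −47: caggcttTGACCGATAGTAACCTctgcgct

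ABCA1, opposite strand: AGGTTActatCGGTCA

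A match describes these letters alone, and no binding was measured.

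ABCG1 (ENSG00000160179; GRCh37, chromosome 21, 43619799 to 43717354, plus strand), a transporter that works as a dimer and passes cholesterol to lipoproteins, moved the other way in the first experiment. It had 90.9, 85.1 and 94.2 CPM in the empty vector replicates and 74.3, 70.6 and 71.2 CPM in the ABCC1 replicates. All ABCC1 libraries were lower, by 0.32 ± 0.05 on the log2 scale (adjusted p = 4.45e-04). In the joint fit, which shares the spread over the 18 libraries, the log2FC was −0.22 and not called (adjusted p = 0.727). Filter and scaling factors also differ there, so the spread alone was not tested for ABCG1. In the second experiment it had 41.1, 44.2 and 40.3 CPM without and 47.6, 50.2 and 44.7 CPM with ABCC1, where all ABCC1 libraries were above (log2FC 0.18 ± 0.15, adjusted p = 0.494). In the third it had 61.0, 72.3 and 51.2 CPM without and 72.1, 66.0 and 73.9 CPM with ABCC1, which overlapped (0.20 ± 0.17, adjusted p = 0.624, and between 0.12 and 0.34 with a library left out). The test of the difference between experiments gave an adjusted p of 0.542, and DESeq2 gave 0.0264. The ratio of ABCG1 to ABCA1 per kilobase was 82.8 ± 9.0 without and 40.3 ± 2.80 with ABCC1 in the first experiment (SD, n = 3), with no overlap. It was 9.11 ± 2.12 and 12.2 ± 3.17 in the second, where the groups overlapped, and 4.29 ± 0.618 and 6.41 ± 0.859 in the third, where every ABCC1 library was higher. Background came to at most 16% of the ABCG1 level in any group, but to between 46.3% and 75.9% of the ABCA1 level in the second and the third, and its part in the ratio was not tested.

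APOE (ENSG00000130203; GRCh37, chromosome 19, 45409011 to 45412650, plus strand), the main apolipoprotein of the brain, was 1.5-fold higher with ABCC1 in the first experiment. It had 4.94, 5.65 and 4.47 CPM in the empty vector replicates and 7.28, 6.84 and 8.27 CPM in the ABCC1 replicates, which did not overlap (log2FC 0.59 ± 0.11, adjusted p = 0.00169). In the joint fit, with its shared spread and its own filter and scaling, it was 0.68 and not called (adjusted p = 0.0732). The second experiment gave 6.61, 5.10 and 3.55 CPM without and 10.5, 8.72 and 6.56 CPM with ABCC1, and the groups touched where ABCC1 replicate 3 fell just under empty vector replicate 1 (log2FC 0.75 ± 0.28, adjusted p = 0.133). It was called there with DESeq2 (0.92, adjusted p = 0.0327) and in the joint fit (0.77, adjusted p = 0.0205). In the third it had 7.86, 5.59 and 5.90 CPM without and 6.37, 8.70 and 8.77 CPM with ABCC1, and the groups overlapped (0.30 ± 0.25, adjusted p = 0.625, and between 0.21 and 0.50 with a library left out). The common effect was 0.61 ± 0.13 (adjusted p = 4.63e-04). A difference between experiments was not detected (adjusted p = 0.928). Background came to 25.5% of the APOE level without and 7.84% with ABCC1 in the second experiment, and to 54.6% and 34.9% in the third. With the background subtracted, the ratio of the APOE group means was 1.06 on the log2 scale in the second and 0.82 in the third. With background as a covariate the common effect was 0.38 and no longer called (adjusted p = 0.282). Since these are bulk samples, a change in the number of cells that express a gene and a change in RNA per cell cannot be told apart.

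**Figure D3:**
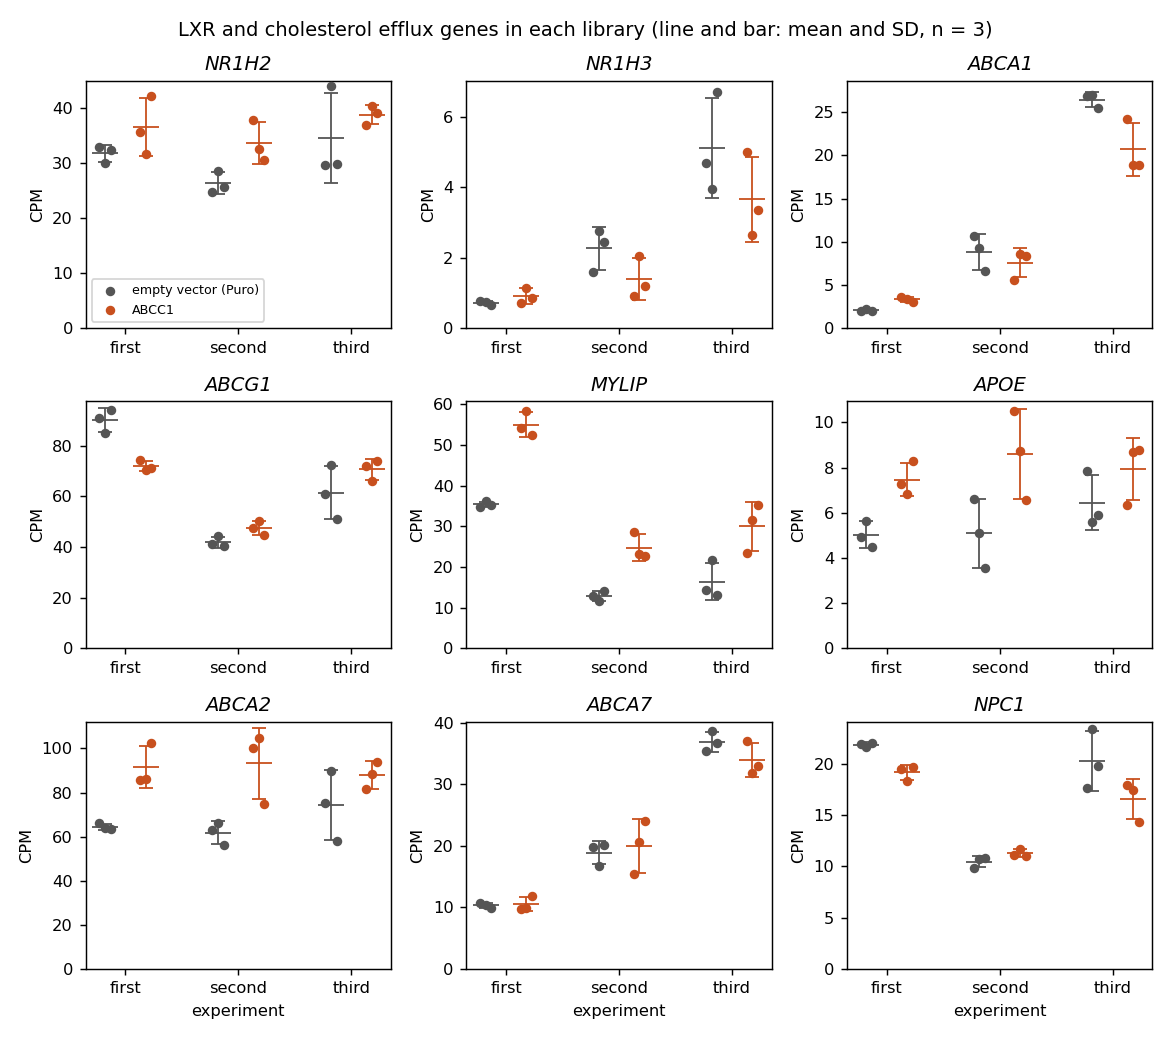
CPM of the 9 genes (y axes, from 0) in each library of the empty vector and ABCC1 groups of the 3 experiments (x axis), with points for libraries and the mean and SD of 3 libraries as a line and bars. The ABCC1 points of MYLIP lie above the empty vector points of the same experiment throughout, and those of ABCA1 lie above in the first and below in the third.

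ABCA2 and ABCA7 are relatives of ABCA1. ABCA2 (ENSG00000107331; GRCh37, chromosome 9, 139901686 to 139923367, minus strand) is abundant in the nervous system and sits in endosomes and lysosomes, where it takes part in the handling of sterols and sphingolipids. The first experiment gave 66.0, 63.7 and 63.3 CPM in the empty vector replicates and 85.7, 86.2 and 102.7 CPM in the ABCC1 replicates. It was higher in all ABCC1 libraries, by 0.51 ± 0.07 on the log2 scale (adjusted p = 2.25e-04). In the second it had 63.2, 66.2 and 56.2 CPM without and 100.1, 104.9 and 75.0 CPM with ABCC1, again without overlap, but the log2FC of 0.59 ± 0.17 did not pass the test (adjusted p = 0.0678). DESeq2 called it there (0.74, adjusted p = 0.00804), and so did the fit without ABCC1 replicate 3 (0.76, adjusted p = 0.0367). In the third it had 75.0, 89.7 and 57.9 CPM without and 81.5, 88.3 and 93.9 CPM with ABCC1, and the groups overlapped (0.24 ± 0.17, adjusted p = 0.543, and between 0.13 and 0.41 with a library left out). The common effect was 0.52 ± 0.09 (adjusted p = 5.22e-05), and with background as a covariate it was 0.35 (adjusted p = 0.164). Background came to at most 24.9% of the ABCA2 level in any group. With it subtracted, the ratio of the group means was 0.71 on the log2 scale in the second and 0.40 in the third.

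ABCA7 (ENSG00000064687; GRCh37, chromosome 19, 1040102 to 1065571, plus strand), a lipid transporter in which common variants are linked to Alzheimer's disease, did not pass the test in any experiment. It had means of 10.3 ± 0.388 and 10.5 ± 1.11 CPM without and with ABCC1 in the first, 18.9 ± 1.87 and 20.0 ± 4.33 in the second and 36.9 ± 1.67 and 33.9 ± 2.72 in the third (SD, n = 3). The log2FC was 0.02 ± 0.09, 0.09 ± 0.18 and −0.12 ± 0.16. The libraries of the lines overlapped in every experiment, and background came to between 12.9% and 36.4% of the level in the groups of the second and the third.

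NPC1 (ENSG00000141458; GRCh37, chromosome 18, 21086148 to 21166862, minus strand) exports cholesterol from lysosomes. The first experiment gave 22.0, 21.6 and 22.0 CPM in the empty vector replicates and 19.5, 18.3 and 19.7 CPM in the ABCC1 replicates. All ABCC1 libraries were lower, by 0.19 ± 0.06 on the log2 scale (adjusted p = 0.0242). This call was lost in DESeq2 (−0.19, adjusted p = 0.0768), without the filter on low counts (−0.16, adjusted p = 0.0953) and without any 1 of the 6 libraries but ABCC1 replicate 3 (adjusted p from 0.0521 to 0.0957). NPC1 in the second experiment had 9.83, 10.7 and 10.9 CPM without and 11.2, 11.7 and 11 CPM with ABCC1, all higher (log2FC 0.11 ± 0.19, adjusted p = 0.761). In the third it had 17.6, 23.4 and 19.8 CPM without and 17.9, 17.4 and 14.3 CPM with ABCC1 (−0.29 ± 0.17, adjusted p = 0.437). The common effect was −0.06 ± 0.09, and it was −0.23 and called (adjusted p = 0.0155) when only the genes tested in every experiment were scaled and fitted. Background came to 57.0% and 27.5% of the NPC1 level without and with ABCC1 in the second experiment and to 80.0% and 77.1% in the third. With the background subtracted, the ratio of the NPC1 group means was 0.87 on the log2 scale in the second and −0.10 in the third. NPC1 shares 579 bp of exon with RMC1 on the opposite strand, whose reads could not be told apart without strand.

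Over all 18 libraries, 4 of the 9 genes had a called common effect, all higher with ABCC1, where 9.39% of the 46225 genes tested were called higher and 3.55% lower. These were MYLIP, APOE, ABCA2 and NR1H2. The set depended on the genes fitted. With at least 10 counts in every library, or on only the genes tested in every experiment, NR1H2 was not called. NPC1 was then called lower, at −0.23 in each (adjusted p = 0.0148 and 0.0155). With background as a covariate MYLIP alone was called.

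The order of the levels per kilobase differed between lines and experiments. In the empty vector libraries of the first experiment ABCG1 stood highest at 14.7 ± 0.755 CPM per kb (SD, n = 3), followed by MYLIP at 11.7 ± 0.238, NR1H2 at 8.47 ± 0.427 and ABCA2 at 5.59 ± 0.130, none of which overlapped. APOE at 2.29 ± 0.272 and NPC1 at 2.17 ± 0.0226 did overlap. ABCA7 followed at 1.24 ± 0.0464, and ABCA1 at 0.178 ± 0.0109 and NR1H3 at 0.166 ± 0.011 overlapped at the bottom. In the ABCC1 libraries MYLIP stood highest at 18.1 ± 0.995 CPM per kb, above ABCG1 at 11.8 ± 0.324. The ratio of MYLIP to ABCG1 was 0.795 ± 0.0549 without and 1.54 ± 0.11 with ABCC1. It was 0.621 ± 0.0883 and 1.05 ± 0.144 in the second experiment and 0.533 ± 0.0656 and 0.860 ± 0.178 in the third, higher in every ABCC1 library than in any empty vector library of its experiment. NR1H2 and ABCG1 were highest in the second experiment without ABCC1, at 7.02 ± 0.542 and 6.83 ± 0.336 CPM per kb, and overlapped.

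The genes most like each of 4 members were sought by Pearson's r of log2 CPM, centred within each experiment, over the 18 libraries and 13637 genes. These r are descriptions, since all libraries share the split into lines and the background that moves with it. MYLIP was followed most closely by ESYT2 (r = 0.99), PLPPR4 (0.97) and KCTD12 (0.97), whose log2FC lay between 0.28 and 0.98 in the 3 experiments. APOE was followed by RNF103 (0.96), ARHGEF17 (0.94) and TOR4A (0.93). The genes nearest to ABCA1 were APOL4 (0.89), TEAD2 (0.88) and CD4 (0.86), and like ABCA1 they had log2FC above 0 in the first experiment and below 0 in the second and the third. NPC1 was followed by THOC6 (0.87), PSMB4 (0.85) and PHGDH (0.85).

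Another 53 genes of the pathway were read from 6 lists. Of these, 46 were tested in the first experiment, and 7 rose and 15 fell there, beside 17.9% and 19.7% of all genes. Their median log2FC was −0.07, beside 0.01 for all genes. In the joint fit, with its shared spread, filter and scaling, 8 genes were called in place of 22, where 1525 of all genes were. With background as a covariate 0 were called, with 4 at an unadjusted p under 0.05, and 18 of all genes were called. The test in edgeR called none of the 53 in the second or the third, with 20 and 7 genes at an unadjusted p under 0.05. DESeq2 called 11 and 1 there, and 20 in the first, where it called 2849, 1597 and 5283 of all genes. Of the 53, 11 were higher and 4 lower in the common effect, beside 9.39% and 3.55% of all genes. With background as a covariate 5 of the 53 were called in place of 15, with 10 at an unadjusted p under 0.05.

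Other LXR targets did not move one way in the first experiment. Of 11 tested, 2 rose, LPL and PLTP, and 5 fell, among them MLXIPL, SCD, LPCAT3 and SREBF1, beside 17.9% and 19.7% of all genes. PLTP, which transfers phospholipid between lipoproteins, went from 30.2 ± 0.719 to 40.7 ± 3.72 CPM (log2FC 0.43 ± 0.07, adjusted p = 6.02e-04) and had a log2FC of 0.52 ± 0.17 in the second and −0.04 ± 0.17 in the third. SCD, which makes monounsaturated fatty acids, fell by 0.17 ± 0.04 on the log2 scale (adjusted p = 0.0112), and its log2FC was 0.50 ± 0.18 in the second (adjusted p = 0.125) and 0.01 ± 0.19 in the third. Its common effect was 0.18 ± 0.10 and not called (adjusted p = 0.339). MLXIPL, a sugar-sensing transcription factor, was under 1 CPM in the first experiment (log2FC −1.58 ± 0.35, adjusted p = 0.00513), and its common effect was −0.99 ± 0.22 (adjusted p = 6.78e-04). With background as a covariate that effect of MLXIPL was −0.27 and not called (adjusted p = 0.814). The list's median log2FC was −0.09 in the first experiment, −0.14 in the second and −0.08 in the third.

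Among 6 uptake and APOE receptors, 2 rose in the first experiment, LRP8 and LRP1, and 2 fell, among them VLDLR. Of all genes tested there, 17.9% rose and 19.7% fell. VLDLR, a receptor for APOE and reelin, fell by 0.26 ± 0.04 on the log2 scale in the first (adjusted p = 7.19e-04), with a log2FC of −0.03 ± 0.17 in the second and −0.19 ± 0.18 in the third. LRP8, an APOE and reelin receptor, went from 33.2 ± 1.44 to 50.5 ± 1.14 CPM in the first (log2FC 0.61 ± 0.05, adjusted p = 8.21e-06), and had 0.55 ± 0.15 (adjusted p = 0.0585) and 0.45 ± 0.16 (adjusted p = 0.124) in the second and the third. LRP1, a large endocytic APOE receptor, had a log2FC of 0.50 ± 0.09 in the first (adjusted p = 0.00134), 0.49 ± 0.17 in the second and −0.07 ± 0.17 in the third.

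Of 9 sterol sensing genes, 5 fell and 1 rose in the first experiment, beside 19.7% and 17.9% of all genes. HMGCS1, an enzyme of cholesterol synthesis, fell by 0.33 ± 0.05 on the log2 scale (adjusted p = 3.17e-04), with a log2FC of 0.13 ± 0.18 in the second and −0.11 ± 0.17 in the third and a common effect of −0.04 ± 0.10. STARD4, which carries sterol through the cytosol, went from 75.7 ± 2.38 to 45.3 ± 0.898 CPM (log2FC −0.74 ± 0.05, adjusted p = 7.69e-07). INSIG1 and SREBF2 also fell. In the second and the third experiments the log2FC of STARD4 was −0.02 ± 0.16 and −0.06 ± 0.17.

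Of 4 oxysterol enzymes tested in the first experiment 2 were called, of 5 partners of the receptors 1 and of 11 lysosomal genes 2, beside 37.6% of all genes. CYP27A1, an oxysterol enzyme, fell by 0.36 ± 0.13 on the log2 scale (adjusted p = 0.0454), a call that held in 3 of 13 alternatives, with values up to −0.025 and an adjusted p of up to 0.135 with a library left out. CH25H, which makes 25-hydroxycholesterol, went from 0.364 ± 0.103 to 0.115 ± 0.0728 CPM (adjusted p = 0.0168), a call that held in 8 of 11 alternatives. CYP7B1, which breaks oxysterols down, and CYP46A1, the neuronal enzyme that makes 24-hydroxycholesterol, were not called, and CYP46A1 had too few counts to be tested. Of the partners and corepressors, NRIP1 rose by 0.15 ± 0.04 (adjusted p = 0.02), with the sign turned and no call when background was a covariate. That call held in 6 of 13 alternatives, with an adjusted p of up to 0.0896 with a library left out. In the common effect NRIP1 was higher (0.38 ± 0.09), but with the covariate it was 0.24 and not called (adjusted p = 0.429). NCOR1 (0.31 ± 0.10) and RXRB (0.24 ± 0.08) also passed the test of the common effect, but did so in only 14 and 9 of 24 alternatives, with values down to 0.0079 and 0.063. With a single library left out, their adjusted p reached 0.109 and 0.0933. Among 12 genes of lysosomal and intracellular cholesterol handling, GRAMD1A, which moves cholesterol from the plasma membrane inward, rose by 0.24 ± 0.08 (adjusted p = 0.0424). That call held in 6 of 13 alternatives, and GRAMD1A had 0.13 without ABCC1 replicate 3 and an adjusted p of up to 0.177 with a library left out. Its common effect was 0.34 ± 0.09 (adjusted p = 0.00855). LAMP2, a lysosomal membrane protein, fell by 0.15 ± 0.04 in the first experiment (adjusted p = 0.0161, held in 7 of 13 alternatives), and its log2FC was 0.12 ± 0.21 in the second and 0.16 ± 0.17 in the third.

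**Figure D4:**
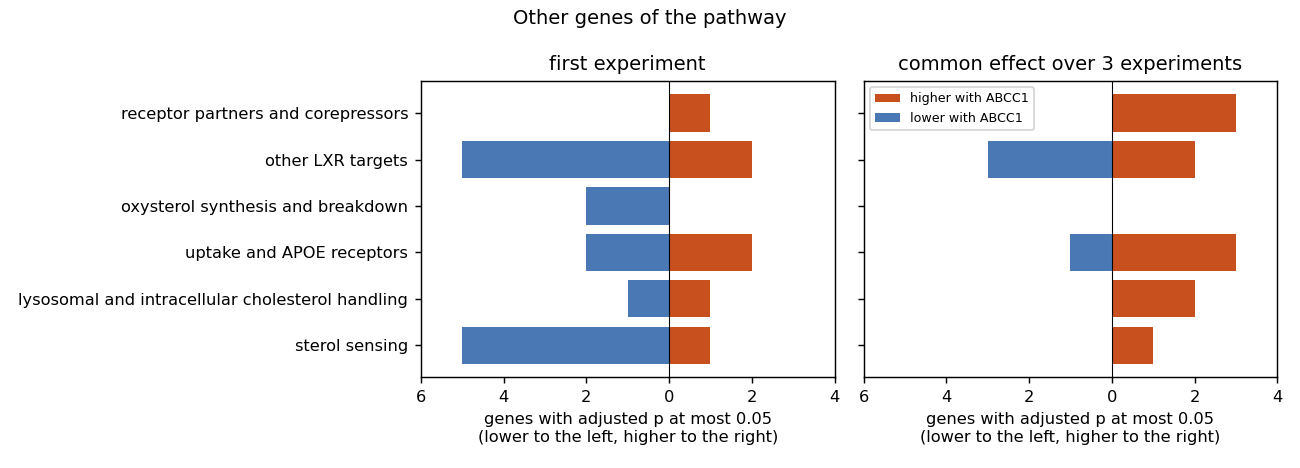
Number of genes in each of the 6 other pathway lists (y axis) with an adjusted p of at most 0.05 (x axis, genes lower with ABCC1 to the left and higher to the right) in the first experiment and in the common effect over the 3 experiments. Sterol sensing has 5 genes lower and 1 higher in the first experiment, and other LXR targets have 5 lower and 2 higher. Of all genes tested there, 19.7% were lower and 17.9% higher.

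Several of the 9 genes are typical of macrophages, astrocytes or liver, so markers of those cells were read beside them. In the first experiment the summed level of 5 macrophage markers was between 0.371 and 0.463 CPM per kb without and between 0.381 and 0.460 with ABCC1, and PTPRC, AIF1 and CD163 had at most 3 counts in each library. The 4 astrocyte markers summed to between 0.172 and 0.193 without and 0.202 and 0.267 with ABCC1, with no overlap. The 5 hepatocyte markers summed to between 0.234 and 0.285 without and 0.233 and 0.493 with ABCC1. In each line 2 macrophage, 4 astrocyte and 4 hepatocyte markers lay above 3 times the low background of that experiment, and none reached 1 CPM per kb. In the second and the third experiments, in which background was higher, at most 1 marker of each of these lists was above 3 times background in any group. The macrophage sum was between 4.78 and 5.56 CPM per kb without and between 1.47 and 3.996 with ABCC1 in the second, and between 12.5 and 13.5 without and between 8.24 and 12.3 with ABCC1 in the third. The lines overlapped in neither, and the ABCC1 libraries were lower, as background was. The astrocyte sum was between 1.69 and 2.03 without and 0.585 and 1.59 with ABCC1 in the second, again with no overlap, and between 4.08 and 5.46 without and 3.38 and 4.41 with ABCC1 in the third. The hepatocyte sum was between 2.84 and 4.58 without and 2.09 and 4.23 with ABCC1 in the second, and between 6.95 and 8.21 without and 6.03 and 7.70 with ABCC1 in the third. The 7 mesenchymal markers summed to between 112.9 and 123.9 CPM per kb without and 105.7 and 108 with ABCC1 in the first experiment, with no overlap, and overlapped between the lines in the second and the third, where they lay between 88.4 and 134.6. COL1A2 had at most 3 counts in each library of the first. Single markers were called in the first experiment inside these sums, with CSF1R, APOB, COL1A1 and SNAI2 higher and CD14, FN1, PRRX1 and TWIST1 lower with ABCC1. The part of other cells in the values of the 9 genes was not tested.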

How the data were processed

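RNA was measured in 18 libraries, 3 of each line in each of 3 experiments. Per the file headers and the submitters' processing notes, the authors aligned reads to GRCh37 with STAR 2.7.3a and deposited raw counts of read pairs per gene over Ensembl exons from featureCounts (Subread 2.0.0), unstranded and not normalized. For the first experiment the labels name 2 library kits, and the one the study's methods name was used. Symbols were matched to 51996 of 57905 gene IDs. The 92 spike-in controls and 6 vector sequences were left out of the counts of genes.

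In R 4.3.3, edgeR 4.0.16 was run per experiment with filterByExpr (minimum count 10), TMM factors and the robust two-sided quasi-likelihood test, and once on all 18 libraries with 1 mean per group, for the common effect and the interaction of experiment and line. The p-values were adjusted by Benjamini-Hochberg over all genes fitted, and the vector sequences were fitted with them. CPM use the TMM library sizes. SE is the log2FC over the square root of F. DESeq2 1.42.0 was an alternative. Pairs of libraries in a group differed by more than sampling noise (chi-square per degree of freedom 1.48 to 22.4), and each was a replicate. By the study's methods each line was plated in a well every week, so the replicates may be weeks shared by both lines, but the labels tie no replicate number to a week. The p-values measure the spread between these libraries, which may be partly technical. Depth covers counting error only.

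The 9 genes, the lists, the tests and the rule for named genes (all 9, up to 4 genes of each list by experiments called and then common p, and the 3 genes most like each of 4 members) were chosen with earlier results of these data known. LPL, LPCAT3, SREBF1, INSIG1, SREBF2 and ABCG8 fall outside that rule and were named after their values were seen. Promoters come from the RefSeq table of GRCh38.p14, another build than the counts, and no coordinate was converted. On simulated counts with 200 genes changed by 1.5 on the log2 scale, 95% were recovered in the first experiment (16908 genes), 72% in the second (33864), 89.5% in the third (36277), 97% in the common effect (45712) and 71.5% in the interaction (45514). Some genes of the pathway lists are counted but their values are not reported here.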

Additional observations from a re-analysis of the deposited data

Results flagged for a closer look

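The effect of ABCC1 on ABCA1 differed between the experiments, with an adjusted p of 0.0290 from edgeR's interaction test. The log2FC was 0.72 in the first experiment, −0.23 in the second and −0.36 in the third. The adjusted p was 0.0848 in the fit with the replicate block and lay between 0.00407 and 0.169 over 24 alternatives. Genes of the 6 pathway lists that differed included ABCG8 (adjusted p = 0.00496) and LPL (adjusted p = 0.0275). No group had more than 3 libraries, so no outlier test was made beyond the chi-square between libraries and leaving each library out.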

How the results depend on the processing

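The settings were DESeq2, relative log expression factors, no filter on low counts, a floor of 10 counts per library, the replicate number as a block, a spread shared over the 18 libraries, background as a covariate and each library left out. The shared spread is that of the joint fit, whose filter and scaling factors also differ, so its counts do not show the spread alone. Scaling on the genes tested in the first experiment, a joint fit of the genes tested in every experiment and subtraction of background were added after seeing the data. MYLIP kept its direction in all of them, and its common effect stayed called in all 24 alternatives, between 0.67 and 0.99. In the first experiment 6 of the 9 genes were called, 0 with background as a covariate (1 at an unadjusted p under 0.05; DESeq2 called 5), 3 with a shared spread and 5 to 6 with a library left out. All genes called there were 6382, 18 with the covariate, 5283 with DESeq2, 1525 with a shared spread and 4637 to 7827 with a library left out. Other pathway genes were 22, then 0 (4 unadjusted), 8 and 13 to 28. In the repeat on cryopreserved cells, the second experiment, 1 of the 9 was called, 2 without the filter or with at least 10 counts throughout, 3 with DESeq2 or a shared spread, 0 with the covariate (2 unadjusted) and 0 to 2 with a library left out. All genes there were 581, 1086 with relative log expression factors, 1402 without the filter, 1366 with at least 10 counts, 9 with the covariate, 2849 with DESeq2, 210 with scaling on the first experiment's genes, 4931 with a shared spread and 8 to 1359 with a library left out. Other pathway genes were 0, 1 with relative log expression factors or at least 10 counts, 3 without the filter, 11 with DESeq2, 13 with a shared spread and 0 to 3 with a library left out. In the third experiment 1 of the 9 was called, 0 with the covariate (0 unadjusted; DESeq2 called 1) and 1 with each library left out. All genes there were 1021, 1725 with at least 10 counts, 1886 with the block, 140 with the covariate, 1597 with DESeq2 and 394 to 2760 with a library left out. Other pathway genes were 0, 2 with at least 10 counts, 1 with the block, the covariate, DESeq2, scaling on the first experiment's genes or a shared spread, and 0 to 4 with a library left out. The common effect was called for 4 of the 9, 3 with relative log expression factors, 1 with the covariate and 3 to 4 with a library left out. With at least 10 counts, or on the genes tested in every experiment, it was 4, but with NPC1 lower in place of NR1H2 higher. The difference between experiments was called for 1, 2 with DESeq2, 0 with the block (2 unadjusted) and 0 to 1 with a library left out. The level of the highest over the lowest of the 9 genes in the empty vector libraries of the first experiment was 88.9 per kilobase and 125 without length.

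The sign turned under an alternative for genes that were not called, and for 1 that was, NRIP1 in the first experiment. With background as a covariate this was NR1H3 (−1.33) and NRIP1 (−0.034) in the first experiment, ABCA1 in the second (0.18) and NR1H2 (−0.15), NR1H3 (0.39), APOE (−0.043), ABCA2 (−0.12) and ABCA7 (0.0040) in the third. With scaling on the first experiment's genes it was ABCA7 (−0.080) and NPC1 (−0.058) in the second, and with background subtracted ABCA1 in the second (0.93). Without a library ABCA7 turned in the first (−0.012 without empty vector replicate 3, −0.078 without ABCC1 replicate 3, of a range up to 0.079) and in the second (−0.036 without ABCC1 replicate 3, of a range up to 0.25). In the common effect, ABCA1 was −0.060 on the genes tested in every experiment and −0.057 with at least 10 counts. ABCG1 was −0.087 and −0.083 there, −0.0066 with relative log expression factors and −0.0073 with DESeq2, and ABCA7 was −0.109, −0.105, −0.032 and −0.032. The causes were not tested, and background and line cannot be told apart.

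Cells of both lines were plated weekly, but the labels do not say that a replicate number marks a week, and the numbers were not taken to pair the samples. Same-numbered libraries deviated from their groups with an average correlation of −0.09, −0.09 and 0.05 in the 3 experiments, against 0.05, 0.04 and −0.03 for others. With the replicate number as a block NPC1 was no longer called in the first experiment (−0.19, adjusted p = 0.0600), and calls of the other 8 genes within experiments and of all 9 in the common effect were the same. Of the other pathway genes named, NRIP1, CYP27A1, GRAMD1A and LAMP2 were no longer called in the first experiment. DESeq2 gave no adjusted p for 1 of the 9 genes in the second experiment and 2 in the third. Low counts limit NR1H3 in the first experiment. Background limits NR1H3, ABCA1 and NPC1 in the second and the third, and APOE in the third.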
